A study of Homo sapiens with 3 samples.

Results

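Strong tag8 irradiated cells are the cells of the colorectal cancer line HCT116 that had received 8 Gy and carried the most of their antibody hashtag, tag8, in a pooled droplet library called Mix2. They were chosen by tag counts alone. Cells needed 200 or more genes and a mitochondrial share below 10% of UMIs (unique molecular identifiers, 1 for each captured RNA molecule). Strong tag8 irradiated cells were those in which tag8 reached at least 3160 counts and 80% of the counts of the 3 tags. Non-irradiated cells were those in which tag6 reached at least 374 counts and 80%. The rule gave 2216 strong tag8 irradiated cells and 810 non-irradiated cells, of 11652 Mix2 cells past the gene and mitochondrial limits and 30907 barcodes called as cells in the 2 libraries of the series.

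The study followed giant HCT116 cells that survive irradiation, named radiation-tolerant persister (RTP) cells, and the small progeny they release. For the irradiated arm, giant cells were isolated on day 5 or 8 after 8 Gy and kept in culture until day 10 or 11, so both giant cells and released progeny could be present. Mix2 pooled an estimated 10000 of these cells with 1000 non-irradiated cells (0 Gy, tag6) and 1000 repopulated cells (tag7). Both libraries carry the genotype label p53plus, and whether a line was 1 clone is not given in the sources used here. Each population was 1 sample inside 1 library, so there was no replicate, no test was made, and every interval below is an exact 95% interval that covers counting error only.

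A cell that stops dividing after DNA damage keeps making RNA and protein. Such cells are known to enlarge, to expand their lysosomes, to store iron in ferritin and to secrete proteases, inhibitors and growth factors, while genes for replication, chromatin assembly and mitosis are shut down through p53 and p21. Epithelial cells under stress can also switch on genes normally used at dry or mucosal surfaces, among them keratins, kallikrein peptidases and antimicrobial proteins. The comparison asked which genes outside the p53, interferon and cell cycle programmes differed between the strong tag8 irradiated cells and the non-irradiated cells of the same pool.

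The markers given for these cells were on the side that the label implies. They came with the rule for cells, which was chosen with earlier results of these data known, so they are no independent check. CDKN1A, which encodes the cell cycle inhibitor p21, was at 918 CPM in strong tag8 irradiated cells, against 180.2 CPM in non-irradiated cells, ratio 5.09 (4.79 to 5.41) between these CPM values (UMIs per 1000000 UMIs of the population). CST3, the secreted cathepsin inhibitor cystatin C, stood at 738 CPM in strong tag8 irradiated cells, against 241 CPM in non-irradiated cells, ratio 3.07 (2.91 to 3.23). MKI67, present in cycling cells, was at 126 CPM in strong tag8 irradiated cells, against 334 CPM in non-irradiated cells, ratio 0.377 (0.356 to 0.398). After every cell was thinned to 5000 UMIs, MKI67 was seen in 32.3% of strong tag8 irradiated cells and 72.8% of non-irradiated cells. Without a limit on tag counts the 3 ratios were 2.77, 1.90 and 0.688. Of the markers of a colorectal epithelial line, 5 of 7 were measured and 2, KRT18 and KRT19, were called higher in strong tag8 irradiated cells (median log2 0.58). EPCAM was at 264 CPM in strong tag8 irradiated cells and 373 CPM in non-irradiated cells (ratio 0.708), KRT8 at 1458 CPM and 1068 CPM (1.37) and CDH1 had 623 and 94 UMIs (ratio 1.49 of the CPM), none of them called. CDX2, below the 10 CPM limit used here, was at 7.70 CPM and 6.06 CPM, and VIL1 was near 0 in both (6 and 2 UMIs).

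Depth differed between the populations. Strong tag8 irradiated cells had 27127545 UMIs in all and a median of 11861.5 UMIs and 3116 genes per cell, and non-irradiated cells had 6104377 UMIs and medians of 7160.5 UMIs and 2423 genes. The median mitochondrial share was 5.65% in strong tag8 irradiated cells and 6.003% in non-irradiated cells. Free RNA, read from 50037 droplets without cells, would make up 3.14% of the UMIs of strong tag8 irradiated cells and 5.11% of those of non-irradiated cells at its mean of 384.915 UMIs per droplet. Markers of other cell types were close to absent. Fibroblast, immune and endothelial lists had no measured member, with summed levels of 3.39, 7.52 and 0.258 CPM in strong tag8 irradiated cells and 2.13, 5.41 and 0 CPM in non-irradiated cells. Of their genes 4 of 9, 5 of 14 and 2 of 6 were at 0 in strong tag8 irradiated cells and 8, 9 and 6 in non-irradiated cells, PTPRC, COL1A2 and CDH5 in both. Of 7 erythroid genes only HBG2 was measured, at 17.7 CPM in strong tag8 irradiated cells and 28.7 CPM in non-irradiated cells. Of the strong tag8 irradiated barcodes 10 also occurred in Mix1, the library of irradiated cells alone, and of the non-irradiated barcodes 0.

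Of 33538 genes, 7722 were measured, that is, reached 10 CPM in either population. A gene was called when its ratio was at least 1.5-fold and its interval excluded equality. By this rule 766 genes (9.92%) were higher and 1190 (15.4%) were lower in strong tag8 irradiated cells than in non-irradiated cells, and the median log2 ratio over measured genes was -0.11. Scaling by trimmed means (TMM) moved that median to -0.01 and the split to 1035 higher and 842 lower, so the share of higher genes among those called was 39.2% by UMI totals and 55.1% by TMM. UMI totals without mitochondrial and ribosomal genes gave 1172 higher and 1047 lower. The 10 CPM could be reached in either population, so 276 of the 766 higher genes were under it in non-irradiated cells and 263 of the 1190 lower genes under it in strong tag8 irradiated cells. Such genes passed only through the population in which they were high, and the list counts below include them. That was so for 11 of 18 higher interferon-stimulated genes, 7 of 14 higher cytokines and growth factors, 4 of 9 higher mucosal genes and 3 of 5 higher NF-kB targets. With no limit on the tag counts (9605 tag8 and 817 non-irradiated cells) 218 genes were higher and 139 lower, or 61.1% higher among those called. At 2-fold or more, 265 genes (3.43%) were higher and 314 (4.07%) lower, and at 3-fold 77 (0.997%) and 39 (0.505%).

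The genes of 6 lists were set aside, namely those for DNA break repair, S phase, G2 and M phases, interferon responses, antigen presentation by MHC class I and targets of p53. They held 362 measured genes. Outside them 707 of 7360 genes (9.61%) were higher and 940 (12.8%) lower in strong tag8 irradiated cells. Genes are then described by lists with named functions, each with the number called and the median log2 ratio. These are to be read as a description beside the 9.92%, the 15.4% and the median over all measured genes. A list can share members with those set aside, as the tubulin list shares TUBA1B with the G2 and M list. Shared members were kept, so its counts and median are not free of the programmes set aside.

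**Figure D1:**
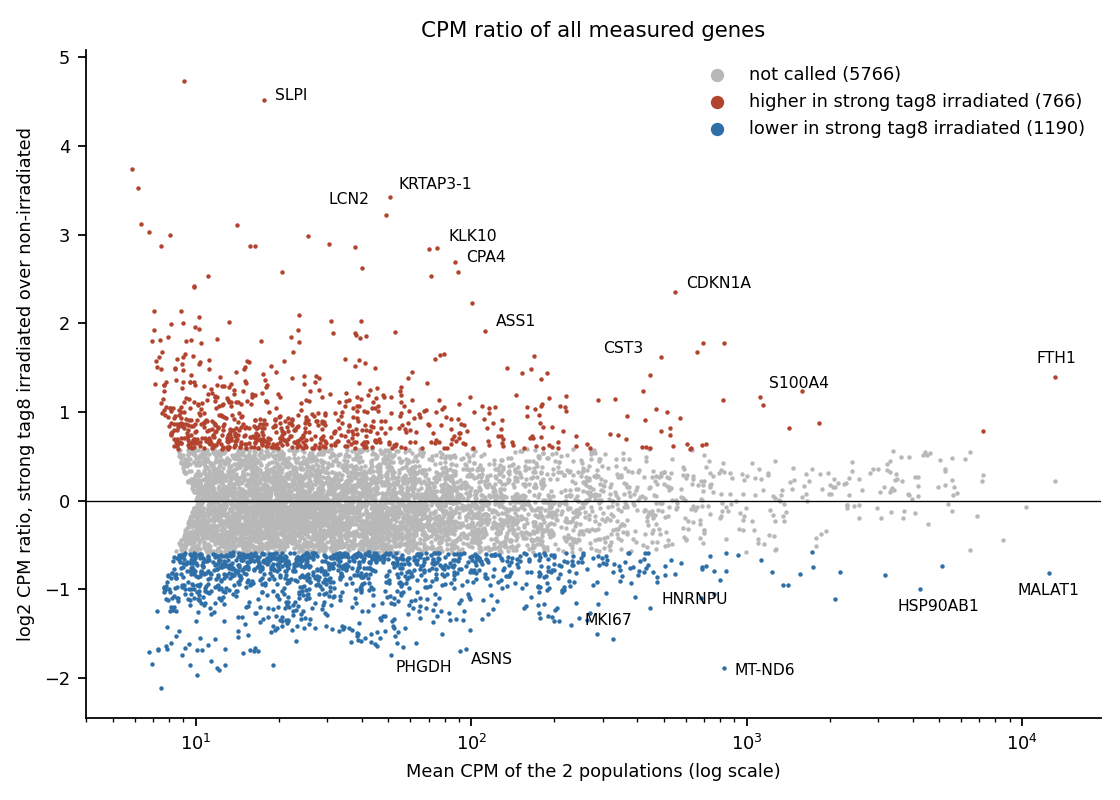
Each point is 1 measured gene, with the mean CPM of the 2 populations on a log axis and the log2 CPM ratio of strong tag8 irradiated over non-irradiated cells on the vertical axis. The 766 higher genes lie above and the 1190 lower genes below the uncalled ones, and KRTAP3-1 lies at 3.42 and MT-ND6 at -1.89. PI3, which had no UMI in non-irradiated cells, is not drawn.

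KRTAP3-1, a keratin-associated protein of the hair shaft, had the highest ratio of the genes with at least 50 CPM outside the lists set aside. It was at 92.8 CPM in strong tag8 irradiated cells, against 8.68 CPM in non-irradiated cells, ratio 10.7 (8.14 to 14.3). It gave 2517 UMIs in strong tag8 irradiated cells and 53 in non-irradiated cells, of which free RNA alone would account for about 40.2. With free RNA subtracted the ratio was 41.5 (24.1 to 78.6). Intervals of such ratios, here and below, treat the UMIs left (12.8 in non-irradiated cells for KRTAP3-1) as if counted. They leave out the error of the subtraction and are too narrow. The KRTAP3-1 ratio was 27.9 at a tag share of 95% and 4.88 without a limit on tag counts. KRTAP2-3, which lies near it on chromosome 17, was at 123 CPM in strong tag8 irradiated cells, against 17.2 CPM in non-irradiated cells, ratio 7.15 (5.89 to 8.77), or 13.5 (10.3 to 18.2) with free RNA subtracted. Of 95 keratin-associated protein genes in the files only these 2 were measured, the other 93 sharing 83 UMIs in strong tag8 irradiated cells and 6 in non-irradiated cells. KRTAP2-3 has near-identical copies, so reads could have been lost or split among them. CNFN, which encodes cornifelin of the cornified envelope, and KRT15, a basal keratin, were also higher, with ratios of 2.42 (2.09 to 2.82) and 2.18 (1.77 to 2.71). Of 44 squamous genes 5 were measured and these 4 were higher, KRTAP3-1 having passed the 10 CPM limit only through strong tag8 irradiated cells.

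The kallikrein genes formed a block of neighbours. KLK5, KLK6, KLK7, KLK8 and KLK10 encode secreted serine peptidases, some of which loosen cell contacts in the outer skin, and they lie between positions 50943303 and 51020175 of chromosome 19 (GRCh38). All 5 were higher in strong tag8 irradiated cells, and the other 10 kallikrein genes were not measured. Among those was KLK9, which lies within this span between KLK8 and KLK10 and had 0 UMIs in both populations. KLK10 was at 132 CPM in strong tag8 irradiated cells, against 18.3 CPM in non-irradiated cells, ratio 7.21 (5.98 to 8.79). KLK5 was at 66.7 CPM in strong tag8 irradiated cells, against 9.17 CPM in non-irradiated cells, ratio 7.27 (5.58 to 9.67), and KLK8, the most abundant, at 166 CPM in strong tag8 irradiated cells, against 35.4 CPM in non-irradiated cells, ratio 4.70 (4.10 to 5.41). KLK6 and KLK7 had smaller ratios of 3.73 (3.14 to 4.47) and 3.66 (2.99 to 4.53).

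The list of proteases and inhibitors, which includes these 5 genes, had 14 higher and 3 lower of 34 measured (median log2 0.45). CPA4, a secreted carboxypeptidase, was at 151 CPM in strong tag8 irradiated cells, against 23.4 CPM in non-irradiated cells, ratio 6.44 (5.45 to 7.67). The other side of the list held CTSV and CTSL, lysosomal cysteine cathepsins, and CSTA, an intracellular cathepsin inhibitor. CTSV was at 8.29 CPM in strong tag8 irradiated cells, under the 10 CPM limit, against 21.8 CPM in non-irradiated cells, ratio 0.381 (0.306 to 0.475). SLPI, a secreted inhibitor of neutrophil elastase, had the largest ratio of the list at 22.9 (12.0 to 50.3), but 817 of its 917 UMIs came from 1 of the 2216 cells. Without the 10 cells richest in it the ratio was 1.76 (0.874 to 4.00), and the call was lost.

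To show promoter sequence beside these values, the 300 bases around the RefSeq start sites (GRCh38.p14, 250 bases before to 50 after) are given. They are shown for KRTAP3-1, for LCN2 and CPA4, and for ASNS, described below. The LCN2 and CPA4 promoters hold TGANTCA, a loose form of the AP-1 motif with any base at N. The ASNS promoter holds an amino acid response element of the form TGATGNAAN. Capitals mark these motifs, searched on both strands. Which start the counted transcripts used is not shown by the data, and for KRTAP3-1 the GENCODE 44 gene (41008521 to 41019324 on the minus strand) begins at another position.
KRTAP3-1 promoter, chr17:41009079-41009378, minus strand: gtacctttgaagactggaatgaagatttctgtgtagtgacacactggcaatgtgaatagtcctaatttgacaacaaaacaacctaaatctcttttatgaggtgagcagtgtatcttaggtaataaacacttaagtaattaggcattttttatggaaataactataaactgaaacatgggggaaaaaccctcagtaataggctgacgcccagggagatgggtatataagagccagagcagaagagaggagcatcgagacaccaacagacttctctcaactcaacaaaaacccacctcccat
LCN2 promoter, chr9:128149203-128149502, plus strand: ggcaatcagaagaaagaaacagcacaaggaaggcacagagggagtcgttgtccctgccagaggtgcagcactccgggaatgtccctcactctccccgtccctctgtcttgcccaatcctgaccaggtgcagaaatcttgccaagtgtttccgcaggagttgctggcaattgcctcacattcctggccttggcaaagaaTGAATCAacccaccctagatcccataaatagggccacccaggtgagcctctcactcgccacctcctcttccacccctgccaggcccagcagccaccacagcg
CPA4 promoter, chr7:130292911-130293210, plus strand: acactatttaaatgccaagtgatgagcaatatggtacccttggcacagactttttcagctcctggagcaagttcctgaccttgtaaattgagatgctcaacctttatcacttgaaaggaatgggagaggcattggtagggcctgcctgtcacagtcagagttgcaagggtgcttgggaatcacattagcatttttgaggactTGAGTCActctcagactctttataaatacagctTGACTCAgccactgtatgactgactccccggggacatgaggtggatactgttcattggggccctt
ASNS promoter, chr7:97872359-97872658, minus strand: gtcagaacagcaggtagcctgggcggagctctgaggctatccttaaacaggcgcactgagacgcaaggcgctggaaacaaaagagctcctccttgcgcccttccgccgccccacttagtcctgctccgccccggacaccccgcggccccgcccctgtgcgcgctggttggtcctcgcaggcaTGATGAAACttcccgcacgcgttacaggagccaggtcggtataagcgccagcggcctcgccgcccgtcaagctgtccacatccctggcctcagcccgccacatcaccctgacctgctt
The TGANTCA matches start 52 bases before the start site in LCN2 (TGAATCA) and 48 and 15 bases before it in CPA4 (TGAGTCA and TGACTCA). The ASNS match starts 68 bases before. Promoters were found for 6221 of 7722 measured genes. TGANTCA was in 5.80% of the promoters of 569 higher genes, 3.55% of those of 958 lower genes, 3.95% of all measured and 7.76% of 27305 promoters in the table. TGATGNAAN was in 1.23% of higher, 1.57% of lower and 1.48% of measured genes' promoters and 3.67% of the table. The KRTAP3-1 window held neither motif, nor did those searched for KRTAP2-3, KLK5, KLK7, KLK10, FXYD3, CST3, CRIP2, HNRNPU, PHGDH and PSAT1. KLK6, which was higher where ASNS was lower, also held TGATGNAAN, 163 bases before its start site. A match describes letters only, and the absence of one says nothing about a factor.

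Secreted and surface genes of mucosal epithelium included LCN2, the siderophore-binding lipocalin of innate defence, at 88.5 CPM in strong tag8 irradiated cells, against 9.50 CPM in non-irradiated cells, ratio 9.32 (7.18 to 12.3), or 17.2 (12.0 to 25.6) with free RNA subtracted. FXYD3, a regulatory partner of the sodium pump, was at 68.8 CPM in strong tag8 irradiated cells, against 11.1 CPM in non-irradiated cells, ratio 6.18 (4.85 to 7.99), or 10.7 (7.74 to 15.3) with free RNA subtracted. TSPAN1, a tetraspanin, and GPRC5A, an orphan receptor of epithelia, had ratios of 3.47 (2.58 to 4.77) and 2.72 (2.48 to 2.99). In all 9 of 27 measured members were higher and 1 lower, EMP2, a tetraspan membrane protein (0.546, 0.470 to 0.637). The list median was 0.14.

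Of 32 junction genes 8 were higher (25%) and 1 lower, and 3 of the 8 (CEACAM1, GJB5 and TJP3) were under 10 CPM in non-irradiated cells. CEACAM1, an adhesion molecule of epithelia, had a ratio of 11.5 (5.23 to 31.6) from 307 and 6 UMIs in strong tag8 irradiated and non-irradiated cells. Free RNA would account for 3.30 of the 6, which leaves 2.70 and too few for a ratio. GJB5, a connexin, had a ratio of 3.96 (2.53 to 6.56). DSP, the desmosomal plaque protein, was the lower one at 94.2 CPM in strong tag8 irradiated cells, against 144 CPM in non-irradiated cells. Among matrix genes and integrins 11 of 31 were higher (35.5%, median log2 0.27). Of these 11, 3 were under 10 CPM in non-irradiated cells, HSPG2 among them. HSPG2, the basement membrane proteoglycan perlecan, reached a ratio of 4.41 (2.82 to 7.30), LAMA5, a laminin chain, 2.13 (1.64 to 2.81), and SDC4, a cell surface proteoglycan, 2.06 (1.77 to 2.42). DST, which ties keratin to hemidesmosomes, was lower at 0.595 (0.530 to 0.669).

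Simple epithelial keratins were higher in 4 of 5 measured members (median log2 0.88). KRT18 was at 2362 CPM in strong tag8 irradiated cells, against 1284 CPM in non-irradiated cells, ratio 1.84 (1.80 to 1.88), and KRT19 at 1816 CPM in strong tag8 irradiated cells, against 1030.2 CPM in non-irradiated cells, ratio 1.76 (1.72 to 1.81). KRT7 was far less abundant, with 28.6 CPM in strong tag8 irradiated cells and 10.5 CPM in non-irradiated cells. Of 18 S100 proteins and annexins 4 were higher and 2 lower. S100A4, a calcium-binding protein linked to cell motility, was at 1553 CPM in strong tag8 irradiated cells, against 690.2 CPM in non-irradiated cells, and S100A6 at 9135 CPM in strong tag8 irradiated cells, against 5326 CPM in non-irradiated cells, while ANXA1, a phospholipid-binding annexin, was lower at 240.1 CPM in strong tag8 irradiated cells, against 383 CPM in non-irradiated cells. The actin list had 11 higher and 8 lower of 86. Its higher members included GSN, the actin-severing gelsolin (2.94, 2.45 to 3.54), FHL2, a LIM domain cofactor (2.81, 2.55 to 3.11), and RHOC, a small GTPase (2.72, 2.50 to 2.95). The lower ones included TMSB4X, which holds actin monomers (0.570, 0.537 to 0.606), and TPM3, a tropomyosin (0.592, 0.567 to 0.618).

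**Figure D2:**
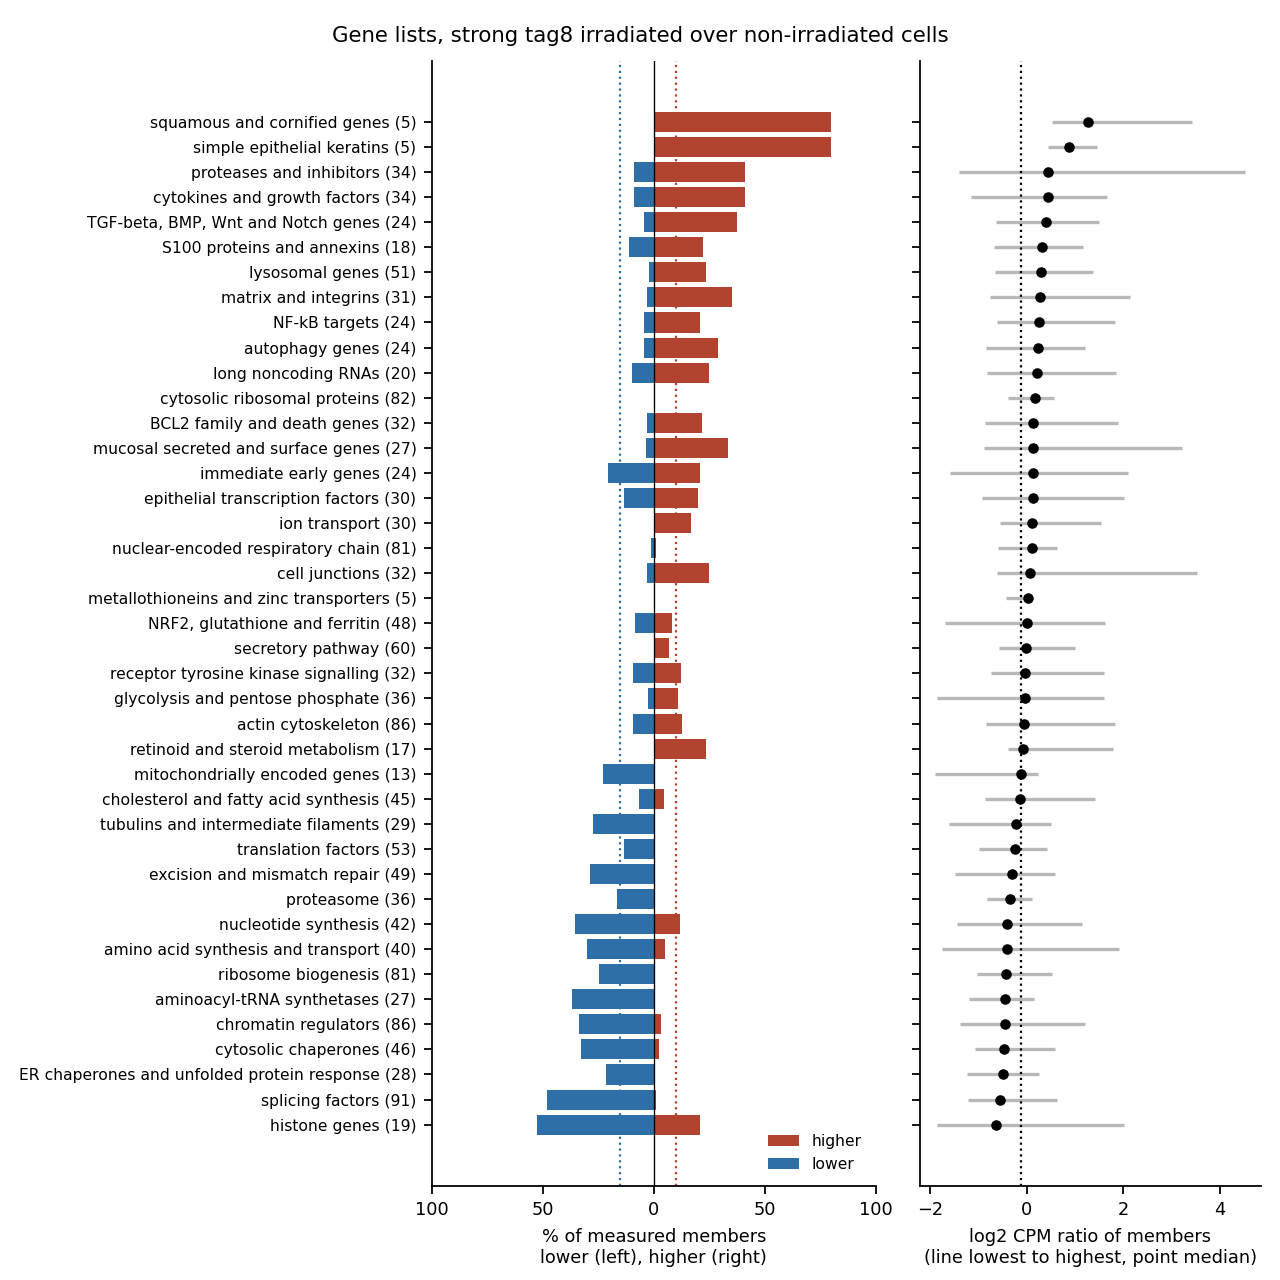
For each gene list, with its number of measured members in brackets, the left panel gives the percentage of members lower (left) and higher (right) in strong tag8 irradiated cells, with dotted lines at the 15.4% and 9.92% of all measured genes, and the right panel gives the lowest, median and highest log2 CPM ratio with a dotted line at the median of all genes. Squamous genes and keratins stand at the top, histone genes and splicing factors at the bottom, and ribosomal proteins have no member called either way.

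Growth factor and cytokine genes were called higher in 14 of 34 measured members and lower in 3 (median log2 0.43). Members of the EGF family went both ways. AREG, amphiregulin, was at 682 CPM in strong tag8 irradiated cells, against 341 CPM in non-irradiated cells, ratio 2.00 (1.91 to 2.10), while EREG, epiregulin, a ligand of the same receptor family, was at 148 CPM in strong tag8 irradiated cells, against 331 CPM in non-irradiated cells, ratio 0.448 (0.425 to 0.473). ANGPTL4, a secreted inhibitor of lipoprotein lipase, had the highest ratio at 3.18 (2.06 to 5.15), and GRN, progranulin, and IGFBP6, an insulin-like growth factor binding protein, had 2.09 (1.86 to 2.35) and 2.07 (1.91 to 2.26). NMU, the peptide neuromedin U, and SCG2, a granin, were lower at 0.538 (0.484 to 0.598) and 0.590 (0.468 to 0.750).

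Of 24 NF-kB targets 5 were higher, led by BIRC3, an inhibitor of apoptosis, at 18.6 CPM in strong tag8 irradiated cells, against 5.24 CPM in non-irradiated cells, ratio 3.54 (2.48 to 5.24), and 1 was lower, TRAF2, an adaptor of tumour necrosis factor receptors (0.653, 0.496 to 0.868). Receptor tyrosine kinase signalling had 4 higher, among them the feedback inhibitor SPRY1 (3.02, 2.03 to 4.69) and the receptor EPHA2 (2.17, 1.81 to 2.62), and 3 lower, EGR1, SPRY4 and FGFR1, of 32. SPRY1 was under 10 CPM in non-irradiated cells. In the TGF-beta, BMP, Wnt and Notch list 9 of 24 were higher (median log2 0.40). ID3, an inhibitor of differentiation factors and a BMP target, was at 243 CPM in strong tag8 irradiated cells, against 86.8 CPM in non-irradiated cells, ratio 2.80 (2.57 to 3.07), and CCND1, cyclin D1, at 753 CPM in strong tag8 irradiated cells, against 396 CPM in non-irradiated cells, ratio 1.90 (1.82 to 1.98). NOTCH3 and the BMP receptor BMPR2 had ratios of 2.48 (1.75 to 3.61) and 2.35 (1.59 to 3.59). They were among the 3 of the 9 higher members that were under 10 CPM in non-irradiated cells. TCF7L2, the transcription factor of the Wnt pathway, was lower at 139 CPM in strong tag8 irradiated cells, against 216 CPM in non-irradiated cells.

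Transcription factors of epithelia divided, with 6 higher and 4 lower of 30. ATF3, a stress-induced factor, had the highest ratio at 4.05 (3.21 to 5.19), and ELF3 and SOX4, factors of epithelial differentiation and plasticity, had 2.60 (2.25 to 3.02) and 2.23 (2.07 to 2.41). Lower were KLF2, the nuclear receptor NR2F1 and the basic leucine zipper factors CEBPB and CEBPG, with ratios from 0.529 to 0.666. MXD4, an antagonist of MYC, was at 64.2 CPM in strong tag8 irradiated cells, against 15.7 CPM in non-irradiated cells, ratio 4.08 (3.32 to 5.07). The immediate early list had 5 members each way of 24. BTG2, also a p53 target, JUND and JUN were higher at 4.26 (3.25 to 5.69), 2.07 (1.93 to 2.23) and 1.72 (1.45 to 2.07), whereas FOSB, a partner of JUN and JUND in AP-1, was at 21.5 CPM in strong tag8 irradiated cells, against 64.9 CPM in non-irradiated cells, ratio 0.332 (0.292 to 0.378), and FOS at 26.6 CPM in strong tag8 irradiated cells, against 67.8 CPM in non-irradiated cells, ratio 0.392 (0.347 to 0.443).

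Enzymes that handle retinoids and steroids had 4 higher and 0 lower of 17 measured. ALDH1A3, which makes retinoic acid, was at 647 CPM in strong tag8 irradiated cells, against 243 CPM in non-irradiated cells, ratio 2.66 (2.52 to 2.81), and CRABP2, which carries it to the nucleus, at 242 CPM in strong tag8 irradiated cells, against 116 CPM in non-irradiated cells, ratio 2.09 (1.93 to 2.26). CYP24A1, which breaks down active vitamin D, had a ratio of 3.46 (2.69 to 4.51). The list's median stayed at -0.08. Medians of 5 lists between -0.08 and -0.02 (this one, receptor tyrosine kinases, actin, secretory pathway and glycolysis) lay between 0.05 and 0.10 under TMM, and no direction is given for these lists as a whole.

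An abundant iron storage gene and a part of the lysosomal genes were higher. FTH1, the ferritin heavy chain, was at 19023 CPM in strong tag8 irradiated cells, against 7225 CPM in non-irradiated cells, ratio 2.63 (2.61 to 2.66). Around it, the NRF2 and glutathione list was balanced, with 4 higher and 4 lower of 48, and the lower ones were SLC7A11, the cystine importer, at 7.96 CPM in strong tag8 irradiated cells, against 25.7 CPM in non-irradiated cells, the glutathione synthesis subunits GCLC and GCLM, and GPX8. SELENOM, a selenoprotein of the endoplasmic reticulum, was higher at 256 CPM in strong tag8 irradiated cells, against 82.7 CPM in non-irradiated cells. Lysosomal genes were higher in 12 of 51 and lower in 1 (median log2 0.30). PSAP, the precursor of the saposins, was at 284 CPM in strong tag8 irradiated cells, against 136 CPM in non-irradiated cells, ratio 2.09 (1.94 to 2.25), and LGMN, the lysosomal peptidase legumain, had a ratio of 2.60 (2.06 to 3.33). Of 24 autophagy genes 7 were higher, among them OPTN, an adaptor for damaged mitochondria (2.29, 1.80 to 2.95) and MAP1LC3B, whose product coats autophagosomes (1.65, 1.53 to 1.78).

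Glycolysis and pentose phosphate genes were mostly uncalled, with 4 higher and 1 lower of 36. SLC2A1, the glucose transporter GLUT1, was at 111 CPM in strong tag8 irradiated cells, against 36.7 CPM in non-irradiated cells, ratio 3.01 (2.63 to 3.47), and ALDOC, an aldolase, had a ratio of 2.86 (2.20 to 3.80). PCK2, the mitochondrial enzyme that makes phosphoenolpyruvate, was the lower one at 0.277 (0.208 to 0.369). Cholesterol and fatty acid synthesis had 2 higher and 3 lower of 45, with TM7SF2, a sterol reductase, at 2.65 (2.11 to 3.35). Ion transport had 5 higher and 0 lower of 30, led by the chloride channel protein CLIC3 (2.92, 2.04 to 4.32) and the sodium channel subunit SCNN1A (1.98, 1.63 to 2.43). CLIC3, like ALDOC above, was under 10 CPM in non-irradiated cells.

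Amino acid synthesis genes were among the lowest of all, 12 of 40 in their list being lower and 2 higher (median log2 -0.41). PHGDH, the first enzyme of serine synthesis, was at 23.6 CPM in strong tag8 irradiated cells, against 78.6 CPM in non-irradiated cells, ratio 0.300 (0.266 to 0.338). ASNS, asparagine synthetase, was at 43.0 CPM in strong tag8 irradiated cells, against 139 CPM in non-irradiated cells, ratio 0.309 (0.283 to 0.338), and PSAT1, the next step after PHGDH, at 49.8 CPM in strong tag8 irradiated cells, against 126 CPM in non-irradiated cells, ratio 0.397 (0.363 to 0.434). The exception with the largest ratio was ASS1, which joins citrulline and aspartate on the way to arginine, at 177 CPM in strong tag8 irradiated cells, against 46.9 CPM in non-irradiated cells, ratio 3.77 (3.34 to 4.26). Of 27 synthetases, which load amino acids onto transfer RNA, 10 were lower and 0 higher, with 17 not called (median log2 -0.45). MARS, for methionine, had a ratio of 0.441 (0.389 to 0.501), and GARS and YARS, for glycine and tyrosine, 0.521 (0.488 to 0.557) and 0.521 (0.475 to 0.572).

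Nucleotide synthesis was lower in 15 of 42 members and higher in 5. RRM2, TK1 and DTYMK, which supply deoxynucleotides for replication, had ratios from 0.459 to 0.508, and UPP1, uridine phosphorylase, was at 31.1 CPM in strong tag8 irradiated cells, against 84.2 CPM in non-irradiated cells, ratio 0.369 (0.330 to 0.413). A single non-irradiated cell held 101 of its 514 UMIs there, and without that cell the ratio was 0.459 (0.407 to 0.517). The 5 higher members were CDA, AK1, GUK1, ADA and APRT, enzymes of salvage and interconversion, the highest being CDA at 2.20 (1.86 to 2.62). With a share so near that of all genes, nothing is read from them as a class.

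The unfolded protein response list had 0 higher and 6 lower of 28 (median log2 -0.49). HSPA5, the chaperone BiP, was at 194 CPM in strong tag8 irradiated cells, against 331 CPM in non-irradiated cells, ratio 0.585 (0.556 to 0.616), HSP90B1 at 615 CPM in strong tag8 irradiated cells, against 1065 CPM in non-irradiated cells, and TRIB3, a pseudokinase induced by that response, had a ratio of 0.424 (0.356 to 0.506). The list of cytosolic chaperones, which also held the mitochondrial HSPA9, had 15 lower and 1 higher of 46 (median log2 -0.47). HSP90AB1 was at 2838 CPM in strong tag8 irradiated cells, against 5646 CPM in non-irradiated cells, ratio 0.503 (0.496 to 0.509), and HSPA9, the mitochondrial chaperone mortalin, at 141 CPM in strong tag8 irradiated cells, against 286 CPM in non-irradiated cells, ratio 0.495 (0.468 to 0.524). The proteasome had 6 lower (16.7%, near the 15.4% of all genes) and 0 higher of 36, with PSMC6 at the lowest ratio of 0.569 (0.521 to 0.623). By the same rule 0 of 60 secretory pathway genes were lower and 4 were higher, among them TMED3 (2.01, 1.77 to 2.28) and SSR4, a subunit of the translocon complex (1.67, 1.58 to 1.76).

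Ribosomal proteins and the factors that assemble ribosomes are given side by side. Cytosolic ribosomal proteins had no member called in either direction of 82, and their median log2 ratio was 0.18. Ribosome biogenesis genes were lower in 20 of 81 and higher in 0 (median log2 -0.43). NCL, nucleolin, was at 964 CPM in strong tag8 irradiated cells, against 1859.7 CPM in non-irradiated cells, ratio 0.518 (0.507 to 0.530), and NOP56, a core protein of box C/D particles, at 252 CPM in strong tag8 irradiated cells, against 456 CPM in non-irradiated cells, ratio 0.552 (0.528 to 0.577). Of 53 translation factors 7 were lower (13.2%, under the 15.4% of all genes), among them EIF4A3, the helicase of the exon junction complex, at 0.505 (0.472 to 0.541).

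Splicing factors were lower in 44 of 91 measured members and higher in 1 (median log2 -0.55). HNRNPU, a nuclear scaffold protein, was at 269 CPM in strong tag8 irradiated cells, against 624 CPM in non-irradiated cells, ratio 0.431 (0.414 to 0.448), and HNRNPD, which binds AU-rich RNA, at 178 CPM in strong tag8 irradiated cells, against 400.2 CPM in non-irradiated cells, ratio 0.445 (0.424 to 0.468). RBMX and DDX39B had ratios of 0.471 (0.441 to 0.503) and 0.452 (0.365 to 0.561), and SRSF8 was the higher one at 1.55 (1.30 to 1.84). Outside the list SFPQ, an RNA-binding paraspeckle protein, was also lower, at 123 CPM in strong tag8 irradiated cells, against 285 CPM in non-irradiated cells, ratio 0.433 (0.408 to 0.459).

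Chromatin regulators were lower in 29 of 86 and higher in 3 (median log2 -0.46). EZH2, which methylates histone H3 in Polycomb repression, was at 40.5 CPM in strong tag8 irradiated cells, against 105 CPM in non-irradiated cells, ratio 0.386 (0.350 to 0.426), and HMGA2, an architectural protein, at 45.9 CPM in strong tag8 irradiated cells, against 109 CPM in non-irradiated cells, ratio 0.421 (0.383 to 0.463). The higher ones, KDM4B, KDM5B and JARID2, comprise demethylases of histone H3 and a Polycomb partner, with ratios from 1.67 to 2.31. SMC1A, of the cohesin ring, and RIF1, which sets replication timing, were at 0.413 (0.382 to 0.447) and 0.447 (0.398 to 0.502). LMNB1, lamin B1, was at 18.2 CPM in strong tag8 irradiated cells, against 55.2 CPM in non-irradiated cells, ratio 0.330 (0.287 to 0.380). Tubulins and intermediate filaments, the list that holds it, had 8 lower and 0 higher of 29, among them STMN1 and TUBA1B, a microtubule regulator and a tubulin, at 0.470 (0.450 to 0.490) and 0.517 (0.505 to 0.529).

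Histone genes had 10 lower and 4 higher of 19 (median log2 -0.63). The linker histone HIST1H1E was at 22.1 CPM in strong tag8 irradiated cells, against 67.7 CPM in non-irradiated cells, ratio 0.327 (0.288 to 0.371), and HIST1H2AG and HIST1H2AH had ratios of 0.277 (0.216 to 0.354) and 0.285 (0.220 to 0.371). The core histone gene HIST1H2BD was higher at 21.1 CPM in strong tag8 irradiated cells, against 5.24 CPM in non-irradiated cells, as was HIST3H2A at 49.6 CPM in strong tag8 irradiated cells, against 13.4 CPM in non-irradiated cells. Poly(A) capture misses most transcripts of replication-dependent histones, and near-identical copies could share reads, so these values are uncertain. Excision and mismatch repair was lower in 14 of 49 and higher in 0, with MSH6, a mismatch sensor, at 13.3 CPM in strong tag8 irradiated cells, against 36.0 CPM in non-irradiated cells, ratio 0.369 (0.311 to 0.439).

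Mitochondrially encoded genes were uneven. Of 13, 3 were lower and 0 higher. How poly(A) capture reads each mitochondrial transcript was not tested, so their separate levels are uncertain. MT-ND6, the complex I subunit read from the light strand, was at 350.4 CPM in strong tag8 irradiated cells, against 1299 CPM in non-irradiated cells, ratio 0.270 (0.262 to 0.278), the lowest ratio among genes with at least 50 CPM. MT-ATP8 and MT-ND2 had ratios of 0.525 (0.490 to 0.563) and 0.557 (0.548 to 0.565), and the list median was -0.11, which was 0.11 without a mitochondrial limit on cells and 0.05 without a limit on tag counts. Nuclear genes of the respiratory chain had 1 higher, UQCR11, and 1 lower, SDHD, of 81 (median log2 0.11).

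Among all measured genes 39.1% of 138 noncoding genes were higher and 10.9% lower, beside 9.40% and 15.5% of 7576 protein-coding genes. These shares were not cleared of genes that passed 10 CPM only through the population in which they were high, as LINC01405 did. How many did so was not counted for this class, so no result about noncoding genes is drawn. LINC01405 was at 53.7 CPM in strong tag8 irradiated cells, against 7.21 CPM in non-irradiated cells, ratio 7.46 (5.53 to 10.3), and UCA1, described in bladder cancer, at 65.2 CPM in strong tag8 irradiated cells, against 18.0 CPM in non-irradiated cells, ratio 3.62 (2.99 to 4.43). LIPE-AS1 had a ratio of 3.13 (2.74 to 3.60), but it lies antisense to another gene and the strand setting of the counting is not given in the sources used here. MALAT1, the abundant nuclear RNA, was lower at 9059.6 CPM in strong tag8 irradiated cells, against 15977 CPM in non-irradiated cells, ratio 0.567 (0.563 to 0.571). By position, chromosome 19 had 15.7% higher and 8.61% lower of 534 genes and chromosome 13 had 4.92% and 31.1% of 122. The 1894 genes with the shortest bodies, up to 13.2 kb, had a median log2 ratio of 0.04 and the 1894 longest -0.20.

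Of 32 genes of the BCL2 and death list 7 were higher and 1 lower. BBC3 (PUMA) and BAX, p53 targets that open the mitochondrial membrane, had ratios of 3.71 (3.03 to 4.60) and 1.90 (1.70 to 2.12), and BIK, another BH3-only protein, 2.74 (2.37 to 3.18). Of 11 budding panel genes named in the study, and therefore not independent of its question, 9 were higher and 0 lower (median log2 1.06). The panels of the study hold more genes, so this is no result for the panels as a whole. Among the 11, NINJ1, a protein of membrane rupture, was at 98.3 CPM in strong tag8 irradiated cells, against 39.3 CPM in non-irradiated cells.

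The shares of cells carrying each gene were compared after thinning, which left out 150 strong tag8 irradiated and 111 non-irradiated cells with fewer UMIs. A UMI of KRTAP3-1 was found in 16.8% of strong tag8 irradiated cells and 3.72% of non-irradiated cells (25.4% and 5.56% before thinning), and of LCN2 in 26.1% of strong tag8 irradiated cells and 3.72% of non-irradiated cells (39.5% and 5.80% before thinning). For KLK10 the shares were 39.5% of strong tag8 irradiated cells and 9.44% of non-irradiated cells, and for ASS1 52.2% of strong tag8 irradiated cells and 19.9% of non-irradiated cells. Among lower genes ASNS was seen in 17.4% of strong tag8 irradiated cells and 46.9% of non-irradiated cells and SFPQ in 39.9% of strong tag8 irradiated cells and 72.8% of non-irradiated cells. MT-ND6 was seen in 62.1% of strong tag8 irradiated cells and 98.0% of non-irradiated cells. No cell type in Mix2 is known to lack these genes, so the level of free RNA stands in for a background. In droplets without cells KRTAP3-1 made up 129 CPM and LCN2 90.4 CPM, levels that account for 75.9% and 48.6% of their UMIs in non-irradiated cells but 4.37% and 3.21% in strong tag8 irradiated cells.

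**Figure D3:**
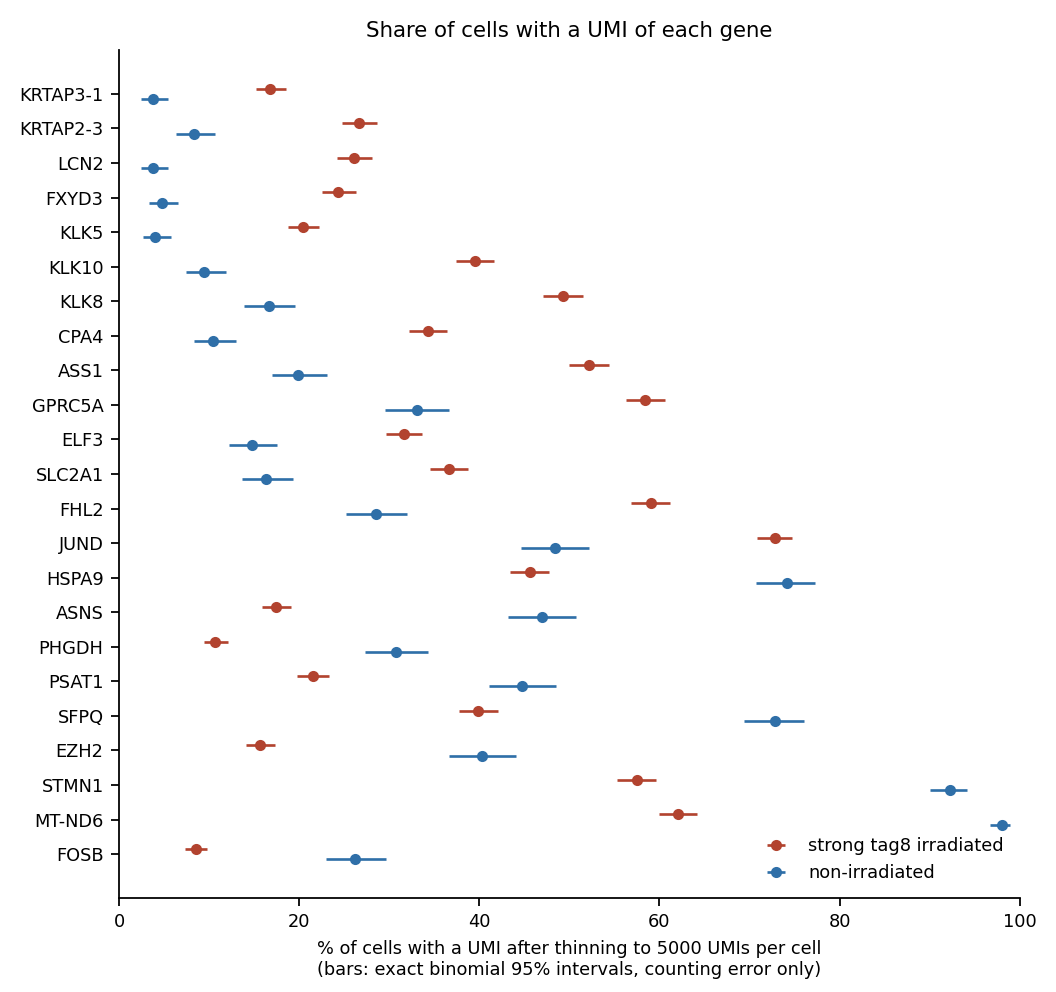
Points give the percentage of cells with a UMI of each gene after thinning to 5000 UMIs, for 2066 strong tag8 irradiated and 699 non-irradiated cells, with exact binomial 95% intervals for counting error. The shares of the upper genes, from KRTAP3-1 to JUND, are larger in strong tag8 irradiated cells and those of the lower genes, from HSPA9 to FOSB, smaller, without overlapping intervals.

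Spread among the thinned strong tag8 irradiated cells is given as the variance of UMIs per cell over their mean, which is 1 from counting alone. It was 11.7 for KRTAP3-1, 5.21 for KRTAP2-3, 5.06 for CPA4, 3.55 for LCN2 and 2.21 for KLK5, and 1.10 for ASNS, 1.15 for PHGDH and 1.02 for MARS. KRTAP2-3 was seen in 51.9% of strong tag8 irradiated cells with KRTAP3-1 and in 21.5% of those without, and KLK10 in 60.9% of cells with KLK5 and in 34.0% of those without. KRTAP3-1 was seen in 19.4% of cells with KLK10 and 15.1% of those without. MKI67 was found in 28.3% of strong tag8 irradiated cells with CDKN1A and in 61.0% of those without it, and in non-irradiated cells in 70.4% with CDKN1A and 75.8% without. These shares pool cells of 1 library and carry no test.

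UMI totals per cell differed, and 162 strong tag8 irradiated cells but 1 non-irradiated cell exceeded 20000 UMIs. At 5000 to 10000 UMIs per cell, with 639 strong tag8 irradiated and 580 non-irradiated cells, all 225 named genes lay on the same side as in all cells, and likewise at 10000 to 15000 UMIs with 828 and 107 cells. The 225 genes were called by their ratios in the same cells, so keeping their side is no independent check. In the first of these bands LCN2 was at 107 CPM in strong tag8 irradiated cells and 11.2 CPM in non-irradiated cells, and HNRNPU at 209 CPM and 602 CPM. KRTAP3-1 had ratios of 11.9 and 17.4 in the 2 bands, and of 4.46 (1.52 to 17.8) under 5000 UMIs, where it gave 22 and 4 UMIs. MT-ND6 in strong tag8 irradiated cells was at 195, 290.1 and 337 CPM from the lowest of these 3 bands to the highest. Under 5000 UMIs 220 of the 225 named genes kept their side, and above 15000 UMIs too few non-irradiated cells (11 and 1) remained.

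**Figure D4:**
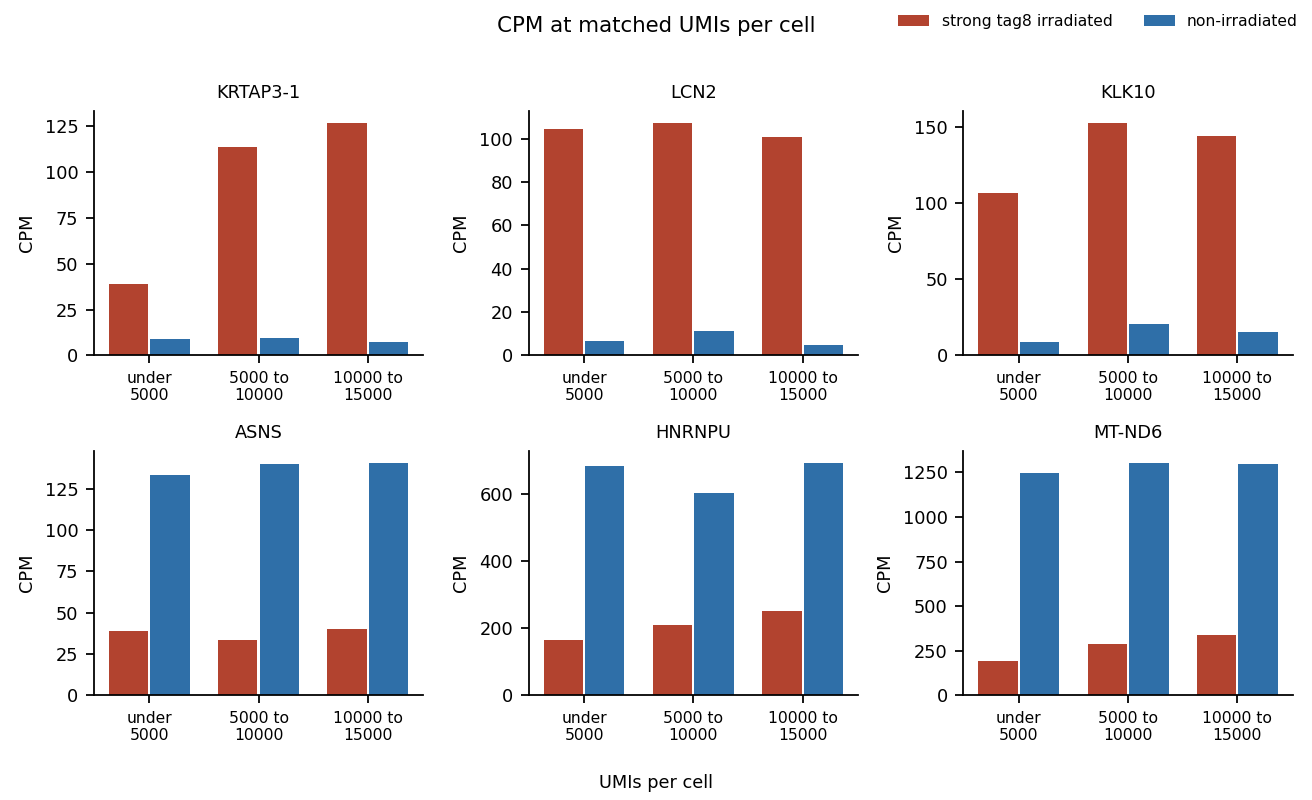
Bars give the CPM of 6 genes in strong tag8 irradiated and non-irradiated cells of matched UMI totals (under 5000, 5000 to 10000 and 10000 to 15000 UMIs per cell, with 150 and 111, 639 and 580, and 828 and 107 cells). KRTAP3-1, LCN2 and KLK10 are higher and ASNS, HNRNPU and MT-ND6 lower in strong tag8 irradiated cells in each band.

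The other populations are given beside these values without a comparison, since they would share the non-irradiated cells or come from another library. Weakly tagged cells are those with a tag8 share of at least 80% but fewer tag8 counts than the limit (median 1183, beside 116 in droplets without cells). That they all came from the irradiated arm rests on this tag alone and was not tested. KRTAP3-1 was at 14.2 CPM in the 7389 weakly tagged cells, 71.3 CPM in the 15630 irradiated cells of Mix1 and 5.49 CPM in the 633 repopulated cells, beside 92.8 and 8.68 CPM in strong tag8 irradiated and non-irradiated cells. ASNS was at 71.9, 43.6 and 65.5 CPM in weakly tagged, Mix1 and repopulated cells, and FTH1 at 8220.0, 17122 and 7625 CPM. LCN2 had 22.9, 38.1 and 39.1 CPM in them, and UCA1 45.3, 60.9 and 48.2 CPM. FOSB had 8.43 CPM in Mix1 and 73.8 CPM in repopulated cells.

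**Figure D5:**
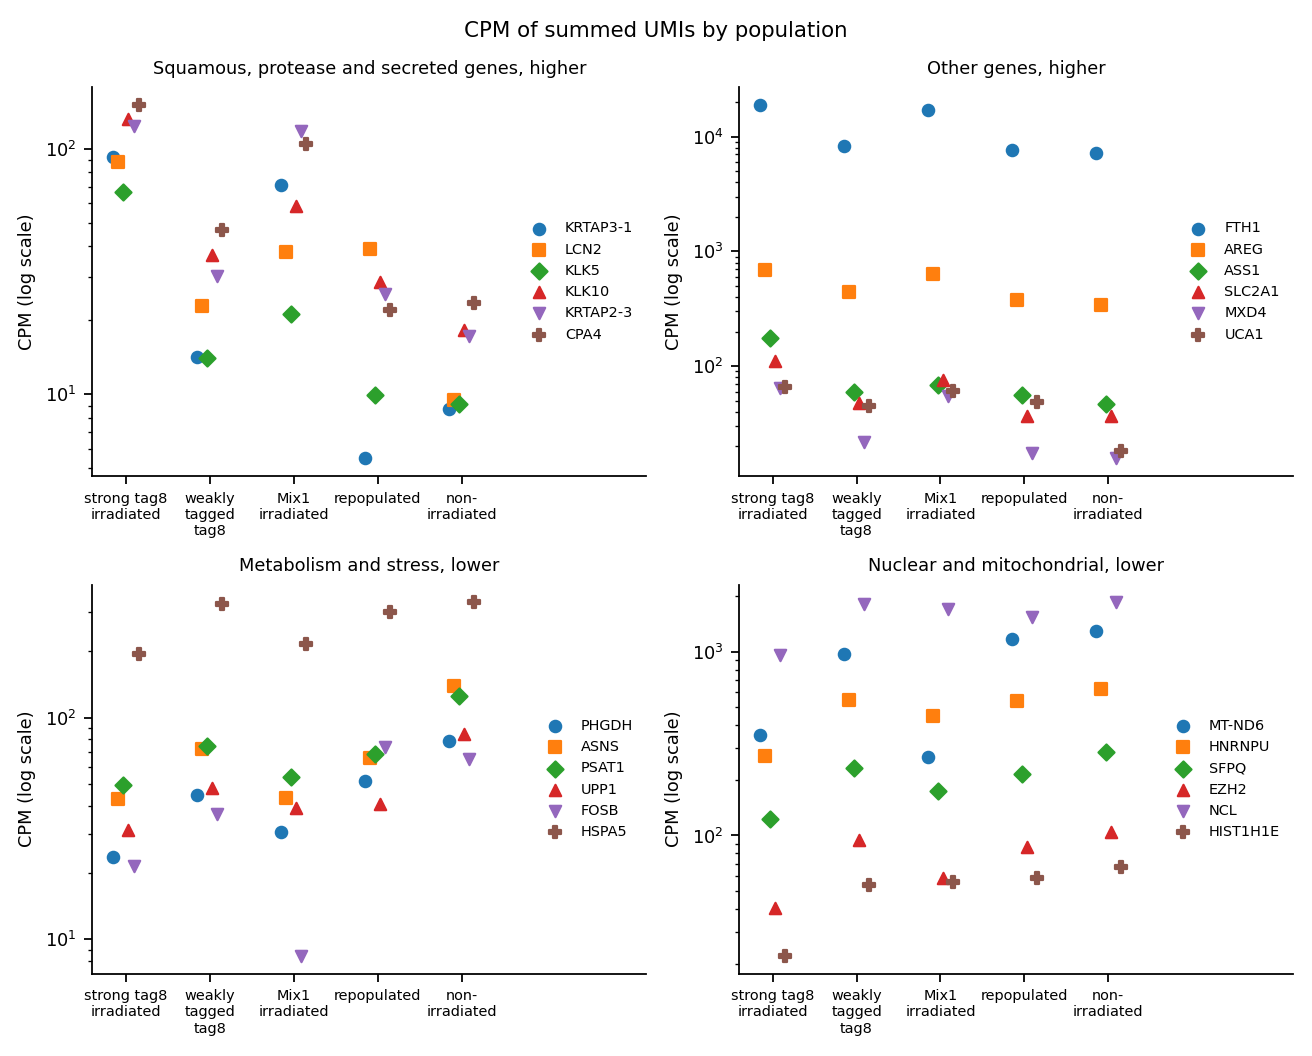
Points give the CPM of summed UMIs, on log axes, of 24 genes in strong tag8 irradiated, weakly tagged tag8, Mix1 irradiated, repopulated and non-irradiated cells, 1 sample each. KRTAP3-1 reads 92.8, 14.2, 71.3, 5.49 and 8.68 CPM and ASNS 43.0, 71.9, 43.6, 65.5 and 139 CPM in that order.

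The tag8 limit cut through a continuous range. The 200 cells just inside it, with 3162 to 3524 tag8 counts, had 496 CPM of CDKN1A, 29.4 CPM of KRTAP3-1 and 234 CPM of MKI67, and the 200 just outside, with 2873 to 3159 counts, had 480.2, 17.6 and 259 CPM. Non-irradiated cells had 200 cells from 377 to 1140 tag6 counts just inside their limit and 7 cells outside it.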

How the data were processed

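The authors deposited UMI counts per gene and barcode for 2 libraries of the 3' kit of 10x Genomics, as whole counts without normalization, with 3 hashtags among the features of Mix2. The processing notes name Cell Ranger and Seurat 2.3, and the file headers give Cell Ranger 3.0.1 for Mix2 and 3.1.0 for Mix1, on GRCh38. The unfiltered Mix2 counts (6794880 barcodes) gave the droplets without cells, those not called as cells with 200 to 500 UMIs, a range set after their totals were seen (median 391 UMIs). The authors' cell filters of 200 genes and 10% mitochondrial UMIs were used.

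Within each population the UMIs of a gene were added up and expressed as CPM. Ratios carry exact conditional binomial intervals, shares exact binomial ones, both at 95%. For ratios with free RNA subtracted the UMIs left were entered as counts, so these intervals are too narrow. Droplets with mixed tags fell to the 80% share. Doublets of the same tag cannot be seen, and no doublet caller was run. Cells were thinned with seed 1. With 1 sample per population there was no test. The ratio and call rule were run on simulated counts with known folds, drawn from population totals with counting error alone. That run held no spread among cells, so it cannot show how the rule behaves with the spread seen here. Named genes were the 4 markers, the 20 highest and 20 lowest ratios at 50 CPM outside the lists set aside, and up to 4 called members each way of each list (every one where 5 or fewer were called). SAA1, PI3 and the genes of the single cell were named after their values were seen, and a few genes that the rule names are not reported here. The rule for cells and the 53 lists were chosen with earlier results of these data known. Positions are from GENCODE 44, which held 7717 of 7722 measured IDs, and promoters from RefSeq (GRCh38.p14). Python 3.11.15, scipy 1.17.1, pandas 2.3.3 and edgeR 4.0.16 (TMM factors only) were used. Alternatives changed the mitochondrial limit, tag limits, scaling, weight and depth of cells, free RNA, CPM minimum and fold. Leaving out cells above the 95th percentile of UMIs and free RNA per droplet were added after the data were seen.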

Additional observations from a re-analysis of the deposited data

How the results depend on the processing

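Named genes stayed on the same side of 1 under nearly all alternatives, 225 of 225 in most and 224 with a mitochondrial limit of 5%, 223 of 224 with a tag share of 95% and 224 without a limit on tag counts, where 104 stayed past the fold. The exceptions were JARID2 (0.987 at the 5% limit), SLC22A18 (0.939 at the 95% share) and RMRP (1.16 without a tag limit). Named genes were called by their ratios in the same cells, so staying on a side is no independent check. The counts were less stable. Higher genes numbered 218 without a tag limit, 1172 scaled without mitochondrial and ribosomal genes, 1538 with no CPM minimum, 235 at 50 CPM and 265 at 2-fold. Lower genes numbered 2120 at the 5% mitochondrial limit (906 strong tag8 irradiated and 172 non-irradiated cells), 1899 with the tag8 limit doubled, 139 without a tag limit, 495 at 50 CPM and 314 at 2-fold. The ratio of CDKN1A was 6.05 at the 5% limit, 4.68 without a mitochondrial limit, 3.77 at the 95% share (1915 and 88 cells), 5.76 with the tag8 limit doubled, 2.77 without a tag limit, 5.47 by TMM, 7.84 with 10% free RNA subtracted and 6.12 with the free RNA of droplets subtracted. CST3 gave 4.00 at the 5% limit, 3.41 at the 95% share, 3.64 with the tag8 limit doubled, 1.90 without a tag limit, 3.29 by TMM and with equal weight per cell, 3.39 in cells of 5000 to 15000 UMIs, and 4.21 and 3.54 with 10% and droplet free RNA subtracted. KRTAP3-1 gave 27.9 at the 95% share, 4.88 without a tag limit and 41.5 with droplet free RNA subtracted, and 10% free RNA left no UMI in non-irradiated cells and no ratio. MKI67 gave 0.194 at the 5% limit, 0.306 at the 95% share, 0.241 with the tag8 limit doubled, 0.688 without a tag limit, 0.404 by TMM and 0.336 in cells of 5000 to 15000 UMIs. The cause of these shifts was not tested. No paired analysis was possible because each population is 1 sample. Rarely detected genes are limited by the 6104377 UMIs of non-irradiated cells.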

Other observations

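A single strong tag8 irradiated cell held most of the UMIs of SLPI, PI3, SAA1, SAA2, SPRR2A and SPRR2E in its population. It had 14597 gene UMIs, 3520 genes, 12658 tag8 counts beside 8 of tag6 and 2 of tag7, and 9.65% mitochondrial UMIs, close to the limit of 10%. It held 817 of 917 UMIs of SLPI, 417 of 427 of PI3, the elastase inhibitor elafin, 433 of 474 of SAA1 and 213 of 233 of SAA2, acute phase proteins, in strong tag8 irradiated cells, against 9, 0, 4 and 1 UMIs in all 810 non-irradiated cells. Cornified envelope genes stood beside them, with 174 of 177 UMIs of SPRR2A and 77 of 77 of SPRR2E, and 0 UMIs of both in non-irradiated cells. It held smaller parts of the chemokines CXCL8 (75 of 138 UMIs) and CCL5 (41 of 90). Of LCN2 it held 124 of 2402 UMIs and of NFKBIA, the inhibitor of NF-kB, 20 of 855, so most UMIs of both lay in other cells. It had 10 UMIs of CDKN1A, 12 of KRT18, 2 of EPCAM, 1 of MKI67 and 0 of KRTAP3-1. It was singled out after its values were seen.

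Without this cell the ratio of SAA1 was 2.31 (0.836 to 8.87) and that of SLPI 2.50 (1.27 to 5.63), and LCN2 stood at 8.84 (6.82 to 11.7). PI3 had 10 UMIs in the other strong tag8 irradiated cells and 0 in non-irradiated cells. Of the 766 higher genes these 3 (PI3, SAA1 and SLPI) had over 10% of their UMIs in 1 cell, and 7 had over 5%, among them ATF3 (6.88%) and KRTAP3-1 (6.12%). Of 102 named lower genes 2, UPP1 and TAGLN, had over 10% of their non-irradiated UMIs in 1 cell (19.6% and 10.1%), and both ratios stayed below 1 without it, at 0.459 (0.407 to 0.517) and 0.624 (0.464 to 0.848).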
